A study of Homo sapiens with 3 samples.

Results

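The effect of adding cinobufotalin to TPF was examined in drug-resistant FaDu cells by setting one single-cell RNA library against another, cell by cell. FaDu is an established human cell line from a squamous carcinoma of the hypopharynx. The subline used here is resistant to TPF, which joins a taxane, cisplatin and 5-fluorouracil. The sample titles do not name the taxane. Cells of this subline were given TPF alone (the TPF library) or TPF with cinobufotalin (the cinobufotalin library), and both groups share the resistant background and TPF, so cinobufotalin is the labelled difference. The labels give no dose, no time and no account of how resistance was selected, and resistant cells free of TPF were not analysed here. All barcodes with at least 1000 UMIs (unique molecular identifiers, each standing for 1 captured transcript), 500 genes or more and no more than 20% of UMIs from mitochondrial genes were taken as cells. This kept 7525 of 8888 barcodes of the cinobufotalin library and 4862 of 6081 of the TPF library, together 12387 of the 18510 cells kept in the whole series, whose other library holds FaDu cells given cinobufotalin. There was 1 library per group, so no test between treatments was possible, the treatment and the library cannot be told apart, and every interval is a 95% exact binomial interval that covers counting error only.

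Cinobufotalin is a bufadienolide, a steroid of toad venom that belongs to the cardiac glycosides. Cardiac glycosides bind the Na,K-ATPase, the pump that moves sodium out of the cell and potassium in. Of the other agents, taxanes stabilise microtubules, polymers of alpha and beta tubulin, cisplatin crosslinks DNA, and 5-fluorouracil blocks thymidylate synthesis and enters RNA. A transcript count per cell can differ between libraries in 2 ways, with more cells holding the transcript or with more copies in the cells that hold it, and a sum over the library does not separate them.

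The libraries were close in total, with 134802289 UMIs with cinobufotalin and 135176387 with TPF alone, but not per cell, with a median of 17867 and 27920.5 UMIs. Shares of cells were therefore compared after thinning each cell to 5000 UMIs, which left out 7.59% of cells with cinobufotalin and 4.22% without and kept 6954 and 4657. The median number of genes in those 5000 UMIs was 2174 and 2211. All 11 squamous epithelial markers were at a mean of 10 CPM or more (CPM being UMI counts scaled to one common total per library). No marker of fibroblasts (10 genes) or immune cells (14 genes) was, and 1 each of the 9 endothelial and 6 erythroid markers was. The kept cells of both libraries shared 10 barcodes. No cell type that lacks a given gene was present in these cultures, so the part of free RNA in the shares was not tested.

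Few genes differed much in the share of cells that held them. Among 8236 genes found in 5% to 95% of cells at 5000 UMIs per cell, 84 were found in at least 5 percentage points more cells with cinobufotalin (1.02% of these genes) and 324 in at least 5 points fewer (3.93%). The median difference was -0.53 points and the median counting error of a difference (1 SE) 0.667 points. Without thinning, 2 of the same genes were found in 5 points more cells (0.0243%) and 7685 in fewer (93.3%), so shares without thinning were lower nearly throughout in the library of lower depth. Libraries with these depths were also simulated, with all cells of a library drawn from the same profile. Of 8036 genes left unchanged there, 0 passed 5 points after thinning and 89.8% did so, downwards, without it. Unchanged genes had nearly equal expected shares at 5000 UMIs by design, so the count of 0 was set in advance and checks the calculation only. The simulated cells did not vary in profile as real cells do, so the simulation covers depth alone and not the make-up of the libraries. For comparison, 6 of 8439 genes were at least 1.5-fold higher in summed CPM (0.0711%) and 16 at least 1.5-fold lower (0.19%).

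**Figure D1:**
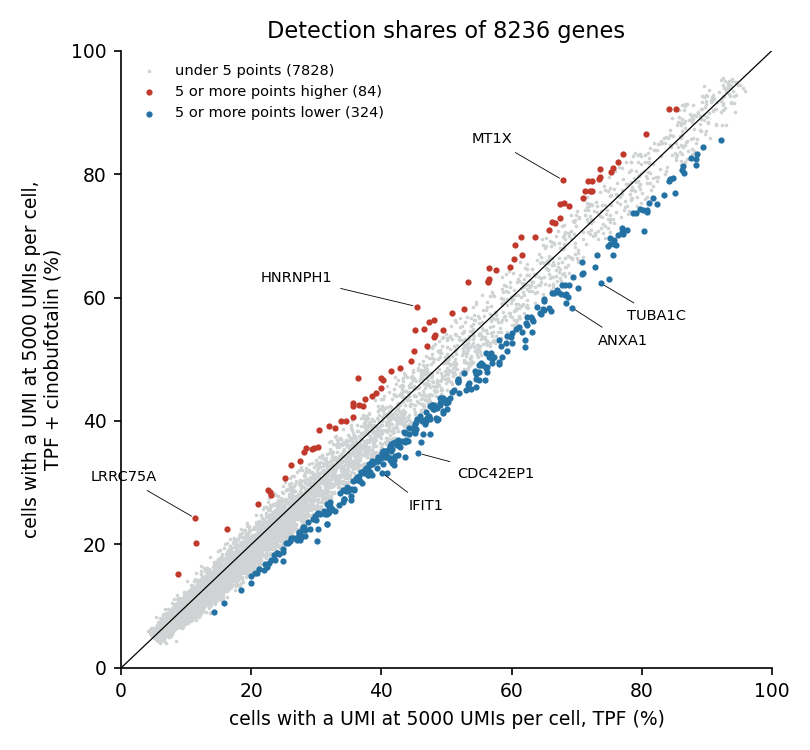
Share of cells with at least 1 UMI of a gene at 5000 UMIs per cell, in the TPF library (x axis, %) and the cinobufotalin library (y axis, %), 1 point per gene over 8236 genes. Red points are the 84 genes at least 5 points higher and blue points the 324 at least 5 points lower, and the line marks equal shares.

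The widest gain was in HNRNPH1, which encodes an RNA-binding regulator of splicing (chr5:179614178-179634784, - strand, hg38 with GENCODE 29). It was found in 58.5% (57.4 to 59.7) of cells with cinobufotalin and 45.5% (44.0 to 46.9) with TPF alone, at 192 and 122 CPM. The intervals do not overlap, but HNRNPH1 was picked for its wide gap and they cover counting error only, so this is no test of the treatment. The cells that held HNRNPH1 also held more, a mean of 1.73 against 1.40 UMIs. LRRC75A (chr17:16441577-16492153, - strand) was found in 24.2% (23.2 to 25.3) against 11.4% (10.5 to 12.3) of cells, at 65.5 and 25.8 CPM, 2.54-fold apart. It overlaps LRRC75A-AS1 on the opposite strand, which was at 611 and 605 CPM, and the labels do not say whether the counting used strand, so reads of the pair may not be separable. Without thinning HNRNPH1 was found in 88.1% and 90.4% of cells, the reverse order, and LRRC75A in 49.9% and 39.8%.

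The next genes in this direction were MT1X, a metallothionein, at 79.0% against 67.9% of cells, and OOEP, first described in oocytes, at 46.9% against 36.4%. PABPN1, which binds poly(A) tails in the nucleus, was found in 54.7% against 45.2% of cells. PHF5A, a subunit of the splicing factor SF3B, was at 64.8% against 56.5%, TRA2A, a splicing regulator, at 38.5% against 30.4%, and LSM6, of the ring that binds U6 RNA, at 56.1% against 47.3%. These 4 genes and HNRNPH1 act on RNA, but with all cells the list of splicing regulators held genes of both directions. Of 26 members measured, 2 were found in 5 points more cells (1.02% of all genes) and 2 in fewer (3.93%). The median was -1.12 points against -0.53 over all genes, and SRSF7 was among the lower ones, at 46.2% against 53.5%. Without the cells rich in respiratory chain mRNA, described below, 2 were 5 points higher (0.983% of all genes) and 0 lower (1.38%). At 2 points 9 were then higher (11.2%) and 3 lower (12.3%). The median was then 0.33 points against -0.01 over all genes, and SRSF7 was at -3.89 points. CAMTA1, a transcription activator that binds calmodulin, POLR2I, a subunit of RNA polymerase II, and YWHAG, a 14-3-3 protein, were higher by 9.29, 8.35 and 8.34 points.

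The widest losses were in TUBA1C, an alpha tubulin, and ANXA1, a phospholipid-binding annexin. TUBA1C (chr12:49188736-49274603, + strand) was found in 62.3% (61.2 to 63.5) of cells with cinobufotalin and 73.7% (72.4 to 75.0) with TPF alone, at 242 and 354 CPM. ANXA1 (chr9:73151757-73170393, + strand) was found in 58.4% (57.2 to 59.5) against 69.3% (67.9 to 70.6), at 241 and 349 CPM. Both pairs of intervals stand apart, which is again no test, since both genes were picked for their wide gaps. The holders also held fewer copies, 1.91 against 2.39 UMIs of TUBA1C and 2.15 against 2.62 of ANXA1. Others were CDC42EP1, an effector of the small GTPase CDC42, at 34.8% against 45.7%, COPE, a coatomer subunit, at 37.9% against 47.5%, and TKT, the pentose phosphate enzyme transketolase, at 34.2% against 43.6%. FKBP8, an FK506-binding protein, was at 20.6% against 30.0%. ENSA, an inhibitor of protein phosphatase PP2A in mitosis, was at 70.7% against 80.4%. TUBA1C has close paralogs among the alpha tubulins, so its reads may have been split among them.

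In sampled counts a higher mean raises both the share of positive cells and the count in those cells, so both parts were expected to move in the same direction. The log2 ratio of mean counts was split into a part from the share of positive cells and a part from their mean count. For the 84 genes found in more cells the medians were 0.19 and 0.13, and for the 324 found in fewer -0.22 and -0.08, with the part from positive cells larger in 29 and 33 genes. The share of cells can hardly move in genes that nearly every cell held, and such genes were not examined as a class. SEC61G and UQCRQ, from the short set always named and chosen with earlier results known, are examples in which the copies differed. SEC61G, of the channel that passes proteins into the endoplasmic reticulum, was found in 98.2% and 95.8% of cells but at a mean of 5.98 against 3.86 UMIs per 5000. At least 10 UMIs of SEC61G were held by 15.0% of cells with cinobufotalin and 2.21% with TPF alone. UQCRQ, a subunit of respiratory complex III, behaved likewise, at 95.5% and 92.6% of cells, 4.97 against 3.27 UMIs, and 10.7% against 1.61% of cells with at least 10. The part in these copy numbers of the cells rich in respiratory chain mRNA, described below, was not tested.

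A higher level was shared across the respiratory chain, the complexes of the inner mitochondrial membrane that carry electrons to oxygen, and the ATP synthase they power. Of 50 nuclear-encoded subunits, 43 were above 0 in log2 CPM ratio with a median of 0.21, against -0.06 over all genes counted, and 19 were at least 1.2-fold higher (3.33% of all genes) and 1 lower (11.3% of all genes). The median was above 0 under each of the 10 alternatives on cells, scaling and weights, but it was 0.09 among cells with MALAT1 at 0.3% to 1% of UMIs and 0.06 without the cells richest in this list, described next. NDUFA11 and NDUFA13 of complex I were found in 6.53 and 6.47 points more cells. UQCR10 and UQCR11 of complex III had log2 ratios of 0.43 and 0.45, COX8A of complex IV 0.45 and ATP5MC1 of the ATP synthase 0.46. The 7 subunits below 0 were SDHB and SDHC of complex II, UQCRB, UQCRC1 and CYC1 of complex III, and ATP5F1A and ATP5F1B, the alpha and beta subunits of the ATP synthase. CYC1, cytochrome c1, was found in 41.6% against 49.5% of cells. At 5 points, 7 of 41 members within the detection range were found in more cells (1.02% of all genes) and 1 in fewer (3.93%).

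The gain was not even over cells. Summed per 5000 UMIs, the 50 genes gave a median of 133 UMIs with cinobufotalin and 117 with TPF alone, a 90th percentile of 218 and 160, and a 99th of 363 and 217. The cinobufotalin library had a second, low hump near 300 to 340 UMIs that the TPF library lacked. At least 200 UMIs were found in 866 of 6954 cells (12.5%, 11.7 to 13.3) with cinobufotalin and 92 of 4657 (1.98%, 1.60 to 2.42) with TPF alone, and at least 300 in 334 and 0. The limit of 200 was set after the distributions were seen. In FaDu cells given cinobufotalin, 235 of 5979 cells (3.93%) passed 200 and 3 passed 300.

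**Figure D2:**
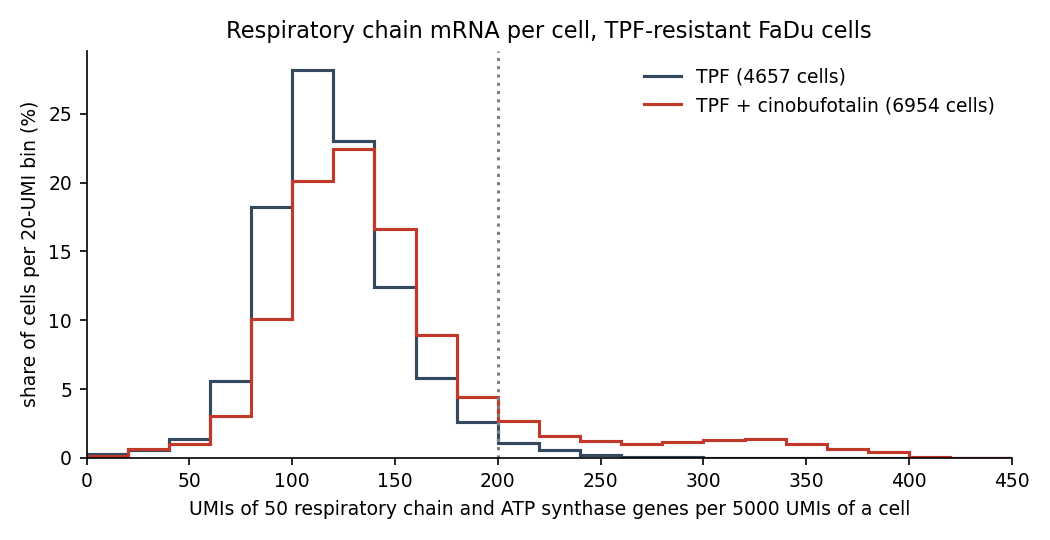
Distribution over cells of the summed UMIs of 50 respiratory chain and ATP synthase genes per 5000 UMIs (x axis) as the share of cells in bins of 20 UMIs (y axis, %), for the TPF library (4657 cells) and the cinobufotalin library (6954 cells). The dotted line marks 200 UMIs, passed by 1.98% and 12.5% of cells.

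The cells above 200 differed from the rest of their library in other ways, several of them shared by both libraries. The name used here, cells rich in respiratory chain mRNA, refers only to the limit that picked them. MALAT1 was under 0.1% of UMIs in 84.2% of them with cinobufotalin and 78.3% with TPF alone. Among the other cells these shares were 4.50% and 7.47%. With cinobufotalin their median share of MALAT1, a noncoding RNA that stays in nuclei, was 0.0152% of UMIs against 0.839% in the other cells, and with TPF alone 0.0220% against 0.828%. Ribosomal protein genes made up 23.8% against 13.6% of UMIs with cinobufotalin and 21.2% against 13.4% with TPF alone. Mitochondrially encoded transcripts were lower, at a median of 1.93% against 3.88% and 1.25% against 4.09%. Their 5000 UMIs covered fewer genes, a median of 1664.5 against 2206 with cinobufotalin. Short ribosomal protein transcripts such as RPLP2 and RPL37 were 1.91 and 1.85 higher on the log2 scale than in the other cells of the cinobufotalin library, while HDAC9, a histone deacetylase gene, was lower at -3.44. Depth went opposite ways, with a median of 14244.5 UMIs against 18807 in the other cells with cinobufotalin, and 32463 against 28314 with TPF alone. The part of RNA quality in this group was not tested.

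The group was spread over depths and cycle stages. With cinobufotalin it made up 38.8% of 634 cells at 5000 to 10000 UMIs, 10.4% of 3460 at 10000 to 20000, 8.45% of 2815 at 20000 to 40000 and 22 of 45 above. In the TPF library the same ranges gave 0 of 117 (up to 3.10%), 2.12% of 567, 1.56% of 3462 and 5.09% of 511. The cinobufotalin share was thus higher in each range. By cycle call the shares were 10.1% of G1, 5.54% of S and 14.4% of G2/M cells with cinobufotalin, against 0.294%, 0.647% and 2.65%.

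The gene counts, the lists, the cycle shares and the named genes over all stages and depths were recomputed without these cells, an alternative chosen after the data were seen. Then 82 of 8341 genes were found in at least 5 points more cells (0.983%) and 115 in fewer (1.38%). Of the 84 and 324 genes above, 36 and 113 were still past 5 points. These cells were chosen by this same list and are a larger share of the cinobufotalin library, so the list had to come out lower without them, and its values are a description only: a median log2 CPM ratio of 0.06, with 0 of 42 members past 5 points in either direction. The per-cell median of the list was then 127 against 116 UMIs and the 90th percentile 168 against 156. HNRNPH1, LRRC75A, MT1X and PABPN1 were still 13.3, 10.7, 9.69 and 10.0 points higher, and TUBA1C, ANXA1 and CDC42EP1 still lower, at -9.34, -8.59 and -9.72 points.

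**Figure D3:**
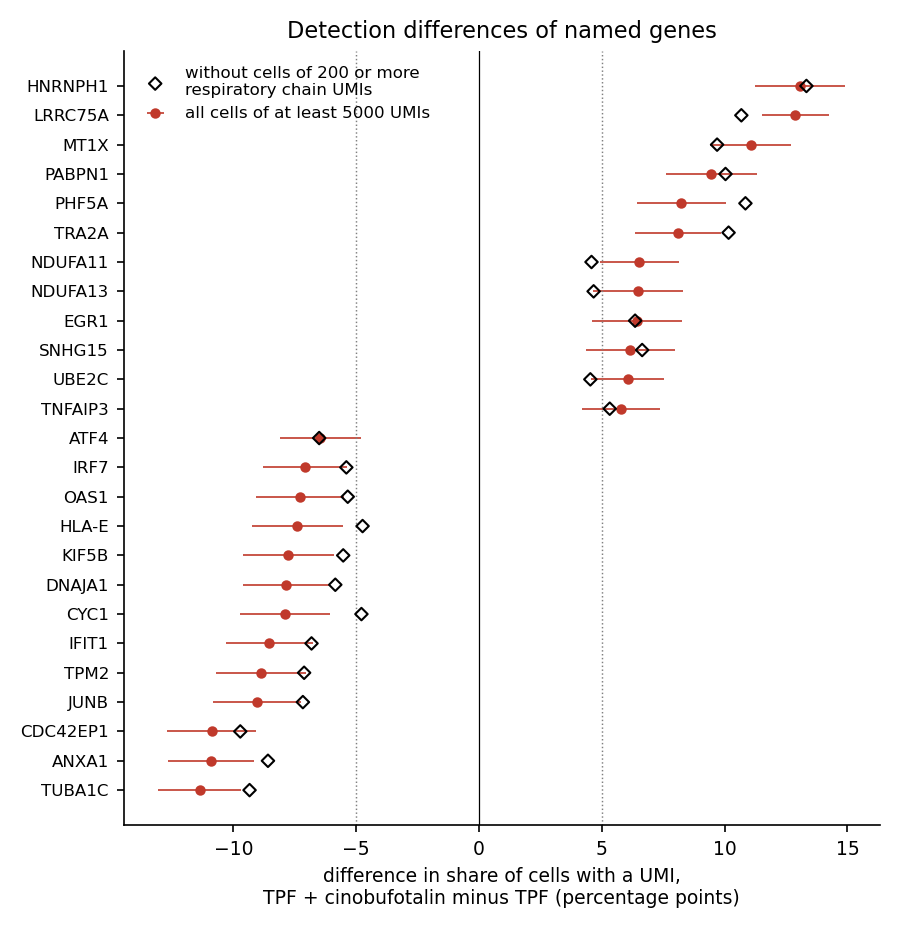
Difference in the share of cells with a UMI at 5000 UMIs per cell, cinobufotalin library minus TPF library (x axis, percentage points), for 25 named genes (y axis). Red circles use all cells, with 95% counting intervals, open diamonds leave out cells of 200 or more respiratory chain UMIs, and dotted lines mark 5 points. HNRNPH1 is at 13.1 and 13.3 points, TUBA1C at -11.4 and -9.34.

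Tubulins, the proteins that taxanes bind as microtubules, were lower. Of 14 tubulin and taxane-related genes with a mean of at least 10 CPM none was above 0 in log2 CPM ratio (36.6% of all genes were), with a median of -0.29, and 7 were at least 1.2-fold lower (11.3% of all genes). TUBA1B was at 557 against 762 CPM, TUBB4B at 564 against 779 and TUBB2A at 42.4 against 60.0. TUBB, a main beta tubulin of dividing cells, was level at 234 against 235 CPM, and STMN1, which destabilises microtubules, at 297 against 307. KIF5B, a kinesin motor, was found in 46.8% against 54.5% of cells and TUBG1, the gamma tubulin of microtubule origins, in 31.3% against 38.0%. Cells were lower along the whole distribution: the 10th, 50th, 90th and 99th percentiles of the summed list per cell were 5, 12, 21 and 31 UMIs with cinobufotalin and 7, 15, 26 and 37 with TPF alone. The per-cell median was lower in each cycle stage, 7 against 9 in G1, 12 against 15 in S and 13 against 16 in G2/M. Without the cells rich in respiratory chain mRNA it was still 12 against 15, and 4 of 14 members were 5 points lower with them (3.93% of all genes) and without them (1.38%).

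Interferon-stimulated genes, which cells switch on when interferon binds its receptor, were mostly lower, with exceptions among the abundant ones. Of 47 members 9 were above 0 in log2 CPM ratio (36.6% of all genes), with a median of -0.15, and of 45 in the detection range 8 were found in at least 5 points fewer cells (3.93% of all genes) and 0 in more (1.02%). IFIT1, which binds foreign RNA ends, was found in 31.6% (30.5 to 32.7) against 40.1% (38.7 to 41.5) of cells, OAS1, which senses double-stranded RNA, in 33.0% against 40.3%, and IRF7, a transcription factor of interferon genes, in 26.3% against 33.4%. IFI27, the most abundant member, was at 14814 against 13348 CPM and IFITM3, a membrane protein that limits virus entry, at 985 against 868, whereas ISG15, a ubiquitin-like modifier, was lower at 3113 against 3446. Summed with IFI27, the list gave the same median per cell in both libraries, 119 UMIs of 5000. Without IFI27 the median was 42 against 49 and the 90th percentile 97 against 104. The same sum was 45 against 50 without the cells rich in respiratory chain mRNA, and IFIT1 was then at -6.82 points.

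The promoters of IFIT1 and IFI27, members that differed in opposite directions, both hold the interferon-stimulated response element searched as GAAA, any 2 bases and GAAA on either strand. The 250 bases before each start are shown to set these elements, in capitals, side by side, from RefSeq on GRCh38.p14 (for IFI27 the first of its 2 starts).
IFIT1 (chr10:89392373-89392622, + strand): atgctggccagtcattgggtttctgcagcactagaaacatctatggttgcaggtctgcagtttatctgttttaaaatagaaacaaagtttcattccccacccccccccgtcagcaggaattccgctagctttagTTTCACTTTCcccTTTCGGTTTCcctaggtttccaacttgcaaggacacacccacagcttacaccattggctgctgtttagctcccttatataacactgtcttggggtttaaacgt
IFI27 (chr14:94110486-94110735, + strand): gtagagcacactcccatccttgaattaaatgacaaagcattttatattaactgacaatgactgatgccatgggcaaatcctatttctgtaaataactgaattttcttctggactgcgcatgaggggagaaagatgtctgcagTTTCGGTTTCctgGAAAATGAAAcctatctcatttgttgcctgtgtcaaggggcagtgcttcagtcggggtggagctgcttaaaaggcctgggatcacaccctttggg
Each holds 2 matches a few bases apart. Over windows of 300 bases around the start, 3.57% of 35116 promoters held the motif, and so did 25 (69.4%) of the 36 list members with a promoter listed by RefSeq here. A match is a description of letters in this window.

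Metallothioneins, small proteins that bind zinc, copper and platinum through their cysteines, were higher. All 5 list members with a mean of at least 10 CPM were above 0 in log2 CPM ratio (36.6% of all genes were). Of them 2 were at least 1.2-fold higher (3.33% of all genes). MT2A was at 8356 against 7132 CPM, MT1X at 432 against 294 and MT1E at 548 against 454, while MT1F was close, at 34.2 against 32.2, as was the zinc exporter SLC30A1, at 13.3 against 12.8. Per 5000 UMIs the list gave a median of 37 against 30 and a 10th percentile of 9 against 6, so the low end of the distribution was higher too. In G1 the median was 23 against 14, in S 29 against 26 and in G2/M 42 against 35. Cells of the cinobufotalin library rich in respiratory chain mRNA held a median of 79 UMIs of the list. Without such cells the median was 34 against 30, and among cells with MALAT1 at 0.3% to 1% of UMIs 35 against 32. Metallothionein genes are near-identical copies, and reads may have been split among them. The MT1X promoter is printed with the metal response element, searched as TGCGCNC or TGCACNC on both strands, in capitals.
MT1X (chr16:56682220-56682469, + strand): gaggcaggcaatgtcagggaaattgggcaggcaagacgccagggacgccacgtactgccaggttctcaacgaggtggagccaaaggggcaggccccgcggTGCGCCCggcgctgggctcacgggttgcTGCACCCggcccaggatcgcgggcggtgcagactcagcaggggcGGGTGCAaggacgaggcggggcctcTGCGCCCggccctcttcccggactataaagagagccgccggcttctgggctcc
It holds 4 matches in the 300 bases around its start, a motif found in 29.6% of all promoters and in 3 of the 3 list members with a promoter listed.

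Host genes of small nucleolar RNAs, whose spliced transcripts are largely noncoding, were slightly higher. Of 16 counted, 15 were above 0 in log2 CPM ratio (36.6% of all genes were). The median was 0.11, and 0.05 among cells with MALAT1 at 0.3% to 1% of UMIs. Of the 16, 9 were found in at least 2 points more cells (7.24% of all genes) and 0 in 2 points fewer (20.9%). SNHG9 was found in 22.5% against 16.3% of cells and SNHG15 in 43.6% against 37.4%. GAS5 was found in 56.6% against 52.1%. Without the cells rich in respiratory chain mRNA 7 were 2 points higher (11.2% of all genes) and 0 lower (12.3%).

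The Na,K-ATPase, the known target of cardiac glycosides, showed small differences in opposite directions. The beta subunit gene ATP1B1 was at 72.0 against 66.7 CPM and in 29.3% against 27.6% of cells, and ATP1B3 at 165 against 174 CPM. The regulators FXYD5 and FXYD3 were at 130 against 136 and 52.9 against 54.6 CPM. None of the 5 subunits counted passed 1.2-fold (3.33% of all genes upwards, 11.3% downwards) or 5 points (1.02% and 3.93%).

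Genes tied to the other agents of TPF and to cell death were examined next. TYMS, the target of 5-fluorouracil, was at 88.6 against 94.8 CPM and in 33.5% against 34.4% of cells. ERCC1, of nucleotide excision repair, was at 20.3% against 23.7%, and CDKN1A, the p53-induced cycle inhibitor, at 75.6% against 76.3%. ABCB1, the efflux pump for taxanes, was at 3.35 against 2.94 CPM and so below the limit for counting. None of 19 p53 targets, 15 BCL2 family members, 26 genes of homologous recombination or 2 efflux transporters passed 5 points in either direction, which 1.02% of all genes did upwards and 3.93% downwards, so that lists of this size would hold few such members in any case. At 2 points, 5 p53 targets, 5 BCL2 family members and 2 recombination genes were lower (20.9% of all genes), and 0, 0 and 1 were higher (7.24%). Of the 26 recombination genes 18 were above 0 in log2 CPM ratio (36.6% of all genes), with a median of 0.05 against -0.06. Without the cells rich in respiratory chain mRNA, 5 recombination genes were 2 points higher (11.2% of all genes) and 0 lower (12.3%).

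Stress and signalling genes were mixed. Of 22 immediate early genes, 4 were found in 5 points fewer cells (3.93% of all genes) and 1, EGR1, in more (1.02%), at 46.7% against 40.3%, while JUNB, another transcription factor, was at 32.9% against 42.0% and ARC at 9.07% against 14.3%. Of 17 heat shock proteins and cochaperones 5 were lower, DNAJA1 at 60.5% against 68.4% and HSPA8 at 70.6% against 76.9% among them, and of 21 genes of the integrated stress and unfolded protein response 3, with ATF4, its central transcription factor, at 68.4% against 74.9%. TNFAIP3, a brake on NF-kappaB, was in 79.3% against 73.5% of cells and NFKBIA, another, in 80.6% against 86.2%. Keratins of simple epithelium were lower, KRT8 at 54.4% against 63.2% and KRT19 at 57.8% against 66.1%, and 10 of 11 squamous markers were below 0 in log2 CPM ratio, with 36.6% of all genes above 0, while TP63, the basal lineage factor, was level at 20.3% against 20.4%. Without the cells rich in respiratory chain mRNA the count of members past 5 points downwards was 1 of 22 immediate early genes, 2 of 17 heat shock genes and 1 of 21 stress response genes, against 1.38% of all genes.

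Most cells were called S or G2/M in both libraries with scores as computed. The shares called G1, S and G2/M were 12.9% (12.1 to 13.7), 15.8% (15.0 to 16.7) and 71.2% (70.1 to 72.3) with cinobufotalin, and 14.6% (13.6 to 15.7), 16.6% (15.5 to 17.7) and 68.8% (67.4 to 70.1) with TPF alone. The shares depend on where the scores are set to 0: centred on their median over both libraries, they were 30.7%, 36.2% and 33.0% with cinobufotalin and 29.1%, 38.1% and 32.9% with TPF alone. The differences of -1.70, -0.75 and 2.45 points became 1.69, -1.86 and 0.16 with that centring, and -2.49, -5.38 and 7.87 with each library scored alone. The calls rest on sets of transcripts, so no rate of division was read from them. The summed G2 and M genes gave the same median per cell, 33 UMIs, and the S genes 14 against 15. UBE2C, the ubiquitin-conjugating enzyme of mitotic exit, was found in 83.2% against 77.2% of cells, whereas MKI67 was in 31.5% against 35.8% and CENPF, a kinetochore protein, in 26.1% against 30.7%.

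Within each cycle call the leading differences were seen again. HNRNPH1 was higher by 13.0 points in G1, 12.8 in S and 13.2 in G2/M, and LRRC75A by 11.9, 11.9 and 13.2. TUBA1C was at -9.52, -11.8 and -12.1 points and ANXA1 at -9.01, -8.25 and -11.5. MT1X and IFIT1 differed most in G1, at 14.5 and -11.3 points against 11.1 and -6.37 in S, a gap between stages that was not tested. UBE2C was at 30.6% against 20.9% of cells called G1, at 163 against 88.0 CPM, a difference of 9.63 points against 3.48 in S and 4.25 in G2/M. It belongs to the G2 and M genes that set the calls. Its values within a call therefore depend on the call itself, and nothing about stages was read from them.

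By depth, the 8 genes plotted kept their direction in each range from 5000 to 40000 UMIs, but HNRNPH1 did not above it. At 20000 to 40000 UMIs, the range with the most cells over both libraries (2815 and 3462), HNRNPH1 was at 53.7% against 45.2%, LRRC75A at 23.0% against 10.9%, TUBA1C at 63.1% against 74.0% and IFIT1 at 28.4% against 41.1%. Above 40000 UMIs, with 45 and 511 cells, HNRNPH1 was at 36.6% against 38.8% and OAS1 at 38.3% against 28.2%, opposite to the whole, and 22 of those 45 cells were rich in respiratory chain mRNA. MT1X differed by 21.1 points at 5000 to 10000, 21.6 at 10000 to 20000, 11.7 at 20000 to 40000 and 12.1 above. A given depth did not pick like cells in both libraries: at 10000 to 20000 UMIs MALAT1 made up 0.897% of UMIs with cinobufotalin and 1.42% with TPF alone, and that range held 46.0% and 11.7% of the kept cells.

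**Figure D4:**
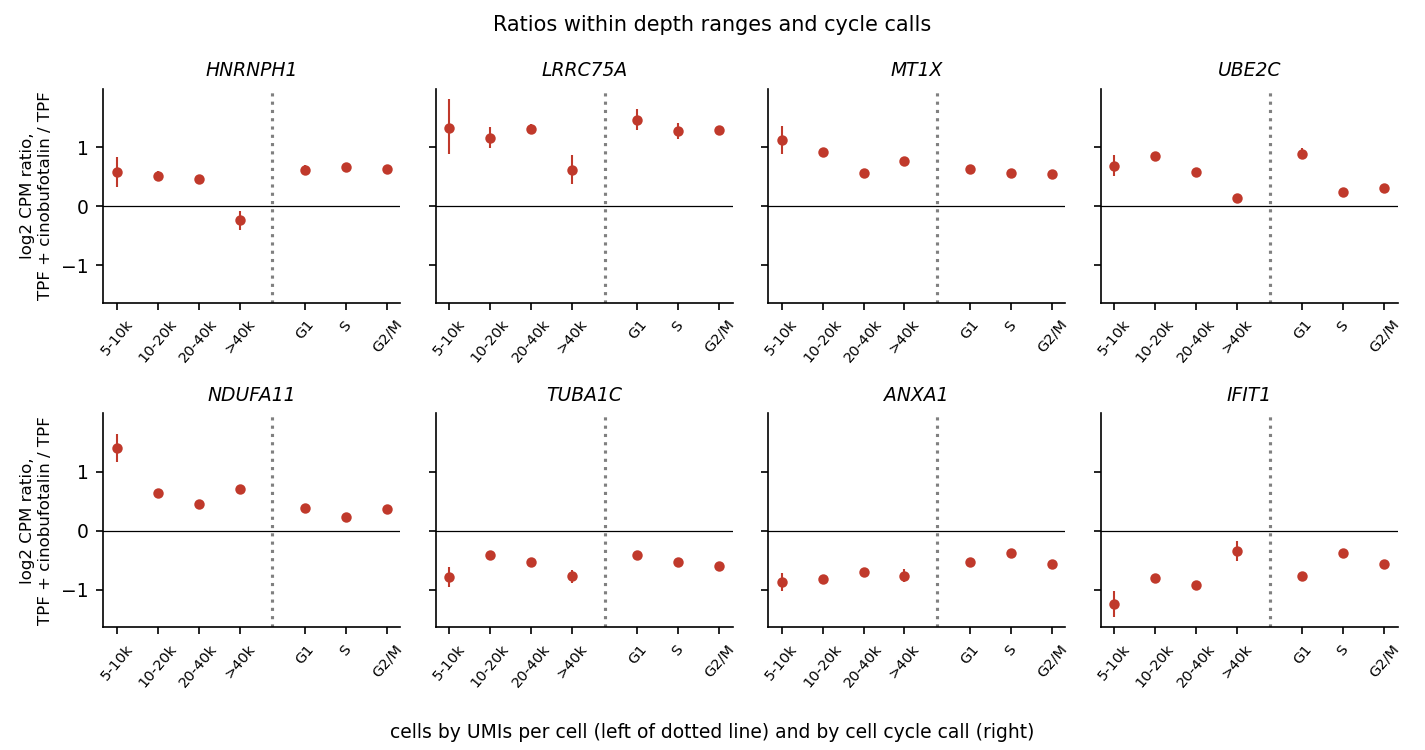
Log2 ratio of summed CPM, cinobufotalin library over TPF library (y axis), for 8 genes within 4 ranges of UMIs per cell (left of the dotted line, k standing for 1000) and 3 cycle calls (right). Bars are 95% exact intervals of counting error, and HNRNPH1 above 40000 UMIs (-0.24) lies on the other side of 0 from its other points.

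The differences also varied with transcript length. Sorted into 5 groups by the longest annotated transcript, 7826 counted protein-coding genes gave a median detection difference of -1.19 points for the shortest group (207 to 2101 bases) and -0.07 for the longest (6096 to 34526 bases). In the shortest group 9.34% of genes were found in 5 points fewer cells and 2.56% in more, against 1.53% and 0.64% in the longest. Without the cells rich in respiratory chain mRNA, the medians ran from -0.75 to 0.62 points. With all cells the median was below 0 in each length group, and the shortest group had the highest share of genes past 5 points in both directions. Groups by genomic span ran from -1.14 to 0.04 points, and the part of either in the counts above was not tested. TRIO, NFAT5 and ITCH, large genes found in 5.64, 5.46 and 5.64 points more cells, were 9.55, 9.36 and 8.24 points higher once those cells were left out. They were picked, after their values were seen, from the larger gains there, and HNRNPH1, PHF5A, LRRC75A, TRA2A, PABPN1 and MT1X were above them.

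**Figure D5:**
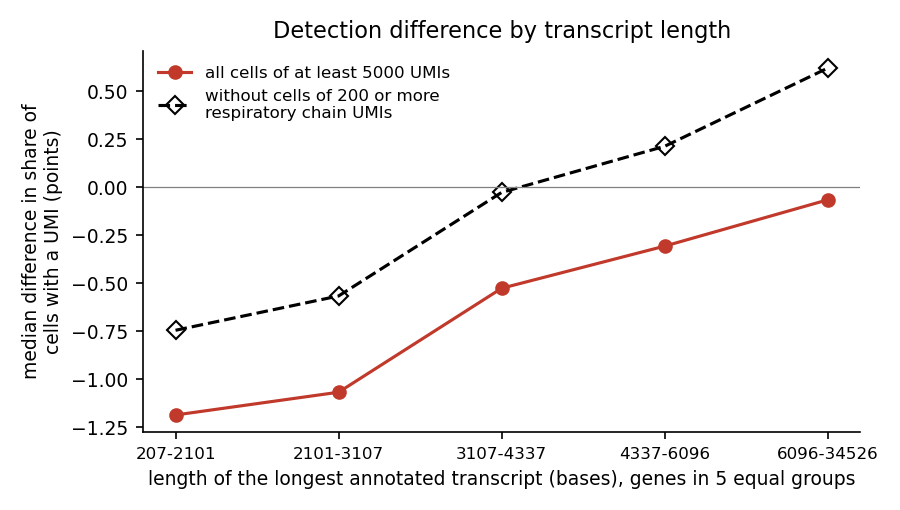
Median difference in the share of cells with a UMI at 5000 UMIs per cell, cinobufotalin library minus TPF library (y axis, percentage points), for 5 equal groups of protein-coding genes by transcript length (x axis, bases). Filled circles use all cells and open diamonds leave out cells of 200 or more respiratory chain UMIs, and both rise from the shortest group to the longest, -1.19 to -0.07 and -0.75 to 0.62.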

How the data were processed

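Single-cell libraries were made with 10x Genomics chemistry, per the labels. The authors deposited unnormalised UMI counts for each gene in each barcode. Cell Ranger 7.0 and hg38 are named in the submitters' processing notes, which give no annotation and do not say how introns or strand were handled. GENCODE 29 held all 58735 of the feature IDs. Members and lists were chosen with earlier results of these data known.

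Counts of kept cells were summed and scaled to CPM, and a gene entered the counts with a mean of 10 CPM or more. Detection shares are the mean over all ways of drawing 5000 UMIs from each cell (hypergeometric); 1 random draw, as first planned, adds noise that carries genes past a limit and gave 102 genes higher and 369 lower at 5 points, so the mean was adopted after the data were seen. Sums per cell, cycle calls and shares of cells with 10 or more UMIs use that draw. Phases came from scanpy 1.11.5 scores over both libraries. No doublet caller was run; an alternative left out cells over 2 times the median UMIs. Free RNA was not corrected for. Tools were Python 3.11.15, numpy 2.4.6, scipy 1.17.1, pandas 2.3.3 and edgeR 4.0.16 (TMM factors only).

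Named genes were the 12 highest and 12 lowest by detection difference, 5 each way by the change in the share of UMIs held by the top 10% of cells, up to 3 members per list and a short set always named; others are named as list members or as said. On simulated cells (1500 per library, 50 genes at each of 4 fold changes), the 54 genes with an expected difference of at least 6 points were all recovered at 5. These differences were built into the simulation, so this checks the calculation only. Alternatives on cells kept, thinning, scaling, weights and low-level limits were tried. A few named genes are not reported here.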

Additional observations from a re-analysis of the deposited data

How the results depend on the processing

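No paired analysis was possible because each group has 1 library and the labels give no replicate numbers; for the same reason no replicate could be left out. Against 6 genes at least 1.5-fold higher in summed CPM, 15 were counted among cells with MALAT1 at 0.3% to 1% of UMIs, 10 without cells of at least 200 respiratory chain UMIs, 13 with equal weight per cell, 103 with equal weight to each depth range and 1 at a mean of at least 50 CPM. Against 16 lower, the counts were 7 without the cells of at least 200 respiratory chain UMIs, 8 with TMM factors, 658 with equal depth weight, 27 at a mean of at least 5 CPM and 3 at 50. Against 84 genes in at least 5 points more cells, there were 155 over all deposited barcodes, 2 without thinning and 380 with equal depth weight. Against 324 in fewer, there were 198 over all deposited barcodes, 163 at MALAT1 of 0.3% to 1%, 115 without the cells of at least 200 respiratory chain UMIs, 99 at 2000 UMIs per cell, 9391 without thinning (over all genes then within the detection range) and 1045 with equal depth weight. The depth weights give the 45 cells above 40000 UMIs of the cinobufotalin library as much weight as larger ranges.

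The differences in cycle calls turned from -1.70 points in G1 to 0.92 at MALAT1 of 0.3% to 1% and 1.69 with scores centred on their median. For S they went from -0.75 to -5.38 with each library scored alone and 1.02 at MALAT1 of 0.3% to 1%. For G2/M they went from 2.45 to 7.87 with each library scored alone, -1.94 at that MALAT1 range and 0.16 with centred scores. The cause of these shifts was not tested.

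Without thinning, 17 named genes turned from higher to lower detection: HNRNPH1 (-2.34 points), MT1X (-0.94), OOEP (-3.37), PABPN1 (-3.21), CAMTA1 (-3.06), LSM6 (-4.04), POLR2I (-3.08), YWHAG (-4.25), C4orf3 (-6.14), PHF5A (-4.97), TRA2A (-4.75), NDUFA11 (-1.76), NDUFA13 (-4.34), TNFAIP3 (-1.87), EGR1 (-6.42), SNHG9 (-3.99) and SNHG15 (-5.30), in the library with fewer UMIs per cell. TMM factors moved the median log2 ratio of all genes from -0.06 to -0.01. With 1 library per group, depth limits counting error only, and no spread between cultures is known.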

Other observations

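In FaDu cells given cinobufotalin, the median share of MALAT1 was 0.00391% in the cells of at least 200 respiratory chain UMIs and 0.0983% in the others. Scaling all UMIs of a cell to 5000 in place of a draw gave 834 cells past 200 with TPF and cinobufotalin, 89 with TPF alone and 210 in FaDu cells.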
